A study of Mus musculus with 4 samples.

Results

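Helper T cells that carried Ccr6 transcripts but no detected transcript of Il17a, Ifng, Foxp3 or Cd79a were examined in the brain and the spleen of mice with EAE, a mouse model in which immunization starts an autoimmune attack on the central nervous system. Per the labels the mice were wild-type C57BL/6, the tissues were taken on day 60 after immunization, and conventional CD4+ T cells (Tconv) were sorted as CD44+ and GITR-, so the sort and the immunization were common to all groups. Each tissue gave 1 RNA library and 1 T cell receptor (TCR) library, and the sources used here do not state how many animals stood behind each library. The cells were chosen from the RNA counts: at least 500 genes, at least 1000 UMIs (unique molecular identifiers, each standing for 1 captured transcript) and at most 10% mitochondrial UMIs, at most 1 productive TCR beta and 2 productive alpha chains, at least 1 Ccr6 UMI, and 0 UMIs of Il17a, Ifng, Foxp3 and Cd79a. This gave 185 of 3964 brain cells and 297 of 8159 spleen cells, 482 of 12123 in all, called Ccr6+ cells here. They were set against Ccr6- cells of the same tissue under the same limits, 1559 in brain and 6122 in spleen. The brain Ccr6+ cells were also set against 175 brain cells with both Ccr6 and Il17a UMIs and 0 UMIs of Foxp3 and Cd79a (Ccr6+ Il17a+ cells). Ifng was not limited in these 175 cells, and some of them held Ifng UMIs.

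CCR6 is the receptor of the chemokine CCL20 and is carried by Th17 cells, by part of the regulatory T cells and by B cells. Th17 cells are helper T cells maintained by IL-23 through the receptor chain Il23r, and known for secreting IL-17A and IL-17F. In EAE, CCR6 is known for its role in the entry of Th17 cells into the central nervous system, and Th17 cells in that tissue can lose IL-17A and take up interferon gamma production.

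Because each tissue is represented by 1 library, cells are not replicates, and the comparisons below carry no test across animals. Levels are in CPM, a gene's UMIs summed over a group's cells and scaled to a fixed total of 1000000 UMIs, and the 95% intervals (exact binomial, Clopper-Pearson for shares) cover counting error only. A gene was counted as higher or lower where the ratio of its levels was at least 1.5 in that direction with an interval that excluded 1. The summed UMIs were 2176654 in brain Ccr6+ cells against 13922807 in brain Ccr6- cells, and 2416312 in spleen Ccr6+ cells against 45980755 in spleen Ccr6- cells. Median UMIs per cell were 11418 in brain Ccr6+ cells and 9028 in brain Ccr6- cells, and 7788 in spleen Ccr6+ cells and 7219.5 in spleen Ccr6- cells, so a Ccr6 transcript was looked for in deeper cells in brain. The 2 RNA libraries shared 31 barcodes, and none of them was a Ccr6+ cell of the set.

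The sorted T cell identity was checked first. All 10 genes of the T cell list had UMIs, and their summed level was 3875 CPM in brain Ccr6+ cells against 3926 CPM in brain Ccr6- cells. In spleen it was 4460 CPM in Ccr6+ cells against 4622 CPM in Ccr6- cells. A paired alpha and beta receptor was recovered in 91.4% of brain Ccr6+ cells against 76.0% of brain Ccr6- cells, and in 90.9% of spleen Ccr6+ cells against 83.6% of spleen Ccr6- cells. No Ccr6+ cell carried the receptor of invariant NKT cells, against 20 brain and 485 spleen Ccr6- cells. Among the B cell markers Ms4a1, Ebf1, Pax5 and Fcmr were at 0 in the Ccr6+ cells of both tissues, and 5 of the 10 had UMIs. The erythroid list summed to 0 CPM in brain and 0.828 CPM in spleen Ccr6+ cells, and 3 gamma delta T cell genes summed to 0 CPM in brain and 0.414 CPM in spleen Ccr6+ cells.

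A cell of another lineage was present in each tissue's set and its weight is stated here because it decides some values. In brain, 1 Ccr6+ cell held 1606 UMIs of the 12 myeloid markers, where the next highest held 11. The list's summed level in brain Ccr6+ cells was 869 CPM with this cell and 133 CPM without it. In brain Ccr6- cells it was 111 CPM, or 100 CPM without their 4 cells of other lineages (at least 30 UMIs of the B, myeloid or CD8 markers). The myeloid Ccr6+ cell supplied 80.1% of the Cst3 UMIs of brain Ccr6+ cells. Cst3, a protease inhibitor of phagocytes, had a ratio of 6.23 over brain Ccr6- cells. With cells of other lineages left out on both sides, 1 Ccr6+ and 4 Ccr6- cells, the ratio was 1.36. In spleen, 1 Ccr6+ cell held 314 UMIs of the B cell list, where the next highest held 11, and the list summed to 257 CPM with it and 128 CPM without it. The complement genes C1qa, C1qb and C1qc, Cst3 and the antigen presentation gene Cd74 are therefore not read as properties of the Ccr6+ cells. The myeloid cell of the brain also held UMIs of Atf3, Egr1, Klf4, Fos and Klf2. Values of these genes without cells of other lineages are given below.

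The name given to the cells, without effector cytokine transcripts, did not hold for cytokines outside the rule. Of 185 brain Ccr6+ cells, 109 (58.9%, interval 51.5 to 66.1%) held a UMI of at least 1 of 11 other cytokine genes, against 40.7% of brain Ccr6- cells. In spleen the count was 107 of 297 Ccr6+ cells (36.0%, 30.6 to 41.8%), against 24.4% of Ccr6- cells. With every cell reduced at random to 3000 UMIs, the shares were 37.7% of Ccr6+ against 22.8% of Ccr6- cells in brain and 19.6% of Ccr6+ against 12.9% of Ccr6- cells in spleen. Tnf accounted for most of these cells: a Tnf UMI was found in 44.9% of brain Ccr6+ cells and 31.2% of brain Ccr6- cells, and in 24.9% of spleen Ccr6+ cells and 14.4% of spleen Ccr6- cells. Il17f and Il22, cytokines of the Th17 program, each had a UMI in 17 of 185 brain Ccr6+ cells (9.19%), against 0.385% of brain Ccr6- cells for Il17f and 0.321% for Il22. The T cell growth factor gene Il2 had a UMI in 12.4% of brain Ccr6+ cells and 8.40% of brain Ccr6- cells, while Il4 and Il10 had none in the brain Ccr6+ cells. The cells are for this reason called by their rule, Ccr6+ cells, throughout.

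Detection of Ccr6 itself was shallow. Among brain Ccr6+ cells 71 held exactly 1 Ccr6 UMI, 46 held 2 and 68 held 3 or more, up to 16. Among spleen Ccr6+ cells 119 held 1, 73 held 2 and 105 held 3 or more, up to 13. With all cells of a tissue at 3000 UMIs, a Ccr6 UMI was found in 202 of 3737 brain cells (5.41%, 4.70 to 6.18%) and in 293 of 7610 spleen cells (3.85%, 3.43 to 4.31%). Without that reduction the shares were 11.1% in brain and 6.08% in spleen. In cells with both Ccr7 and Lef1 UMIs and none of Il17a, Ifng and Foxp3, a class rich in naive and central memory cells that should mostly lack Ccr6, the share at 3000 UMIs was 1.68% in brain and 1.36% in spleen. The shares in Il17a+ brain cells (23.7%), in brain Foxp3+ cells (10.8%) and in spleen Foxp3+ cells (8.94%) lay above that share, while Ifng+ Il17a- cells, at 0.623% in brain and 0.168% in spleen, lay under it. Among cells within the limits of the set, 5.20% (4.15 to 6.41%) in brain and 3.02% (2.60 to 3.48%) in spleen had a Ccr6 UMI at that depth. In the cells with Ccr7 and Lef1 the shares were 1.68% (0.772 to 3.17%) and 1.36% (1.01 to 1.79%). Apart from any with a Cd79a UMI, the latter are part of the former, so the shares are not of separate groups. At full depth 27 of 546 brain and 87 of 3730 spleen cells with Ccr7 and Lef1 held a Ccr6 UMI. Among cells within the limits that held an Il23r UMI, 101 of 200 in brain and 124 of 185 in spleen held a Ccr6 UMI at full depth. The groups rest on detection, and how many cells held Ccr6 or Il17a transcripts that were missed was not tested. How many cells of the set carried Ccr6 UMIs from free RNA was not tested. The median depth of the cells with Ccr7 and Lef1 before the reduction was 10159.5 UMIs in brain and 7726.5 UMIs in spleen.

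Ccr6+ cells of both tissues carried the receptor genes of the Th17 program. As the rule chose the cells by their counts, and Ccr6+ against Ccr6- is its own contrast, the values that follow describe the cells and support nothing further. Il23r, the IL-23 receptor chain, stood at 155 CPM in brain Ccr6+ cells and 20.6 CPM in brain Ccr6- cells, a ratio of 7.53 (6.42 to 8.85). Against an equal number of brain Ccr6- cells matched on total UMIs, the Il23r ratio was 3.98. In spleen Il23r stood at 139 CPM in Ccr6+ cells and 2.68 CPM in Ccr6- cells, a ratio of 52.1 (42.3 to 64.6). The 2 tissues thus had Il23r levels close to each other in Ccr6+ cells, and it was the Ccr6- cells that lay apart. Il1r1, the signalling IL-1 receptor, was at 238 CPM in Ccr6+ against 45.2 CPM in Ccr6- cells of the brain (5.28, 4.69 to 5.94) and at 91.0 CPM in Ccr6+ against 3.96 CPM in Ccr6- cells of the spleen (23.0, 18.8 to 28.2), where matching on total UMIs gave a spleen ratio of 14.7. Il17re, a receptor chain for IL-17C, was at 112 CPM in Ccr6+ against 21.9 CPM in Ccr6- cells of the brain (5.10, 4.29 to 6.05) and at 113 CPM in Ccr6+ against 3.70 CPM in Ccr6- cells of the spleen (30.6, 25.1 to 37.2).

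Among the remaining receptors, Ccr4, a chemokine receptor of skin-homing and Th17 cells, was at 140 CPM in brain Ccr6+ cells and 22.1 CPM in brain Ccr6- cells (6.33, 5.39 to 7.45). In spleen it was at 194 CPM in Ccr6+ cells and 19.5 CPM in Ccr6- cells (9.95, 8.88 to 11.1). Il18r1, a chain of the IL-18 receptor, had ratios of 2.16 (2.03 to 2.29) in brain and 4.68 (4.42 to 4.96) in spleen, and Ltb4r1, the leukotriene B4 receptor, 3.11 (2.60 to 3.71) and 13.1 (10.5 to 16.1). Il6st and Il21r went the other way in both tissues. Il6st, the signalling chain shared by IL-6 family receptors, was at 9.65 CPM in brain Ccr6+ cells against 68.8 CPM in brain Ccr6- cells (0.140, 0.0864 to 0.216), and Il21r, the IL-21 receptor, at 89.6 CPM in Ccr6+ against 147 CPM in Ccr6- cells (0.609, 0.523 to 0.706). In spleen the ratios were 0.388 (0.319 to 0.467) for Il6st and 0.592 (0.506 to 0.688) for Il21r. In the list of Th17 receptors, 9 of 15 measured genes were higher and 3 lower in brain Ccr6+ cells, and 9 of 15 were higher and 2 lower in spleen Ccr6+ cells. With brain Ccr6- cells matched to the Ccr6+ cells on total UMIs, 8 were higher and 1 lower, and the Il6st ratio was 0.280. Over all genes of at least 10 CPM, the limit used for gene lists, 6.25% were higher and 6.03% lower in brain, and 9.02% were higher and 5.07% lower in spleen.

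**Figure D1:**
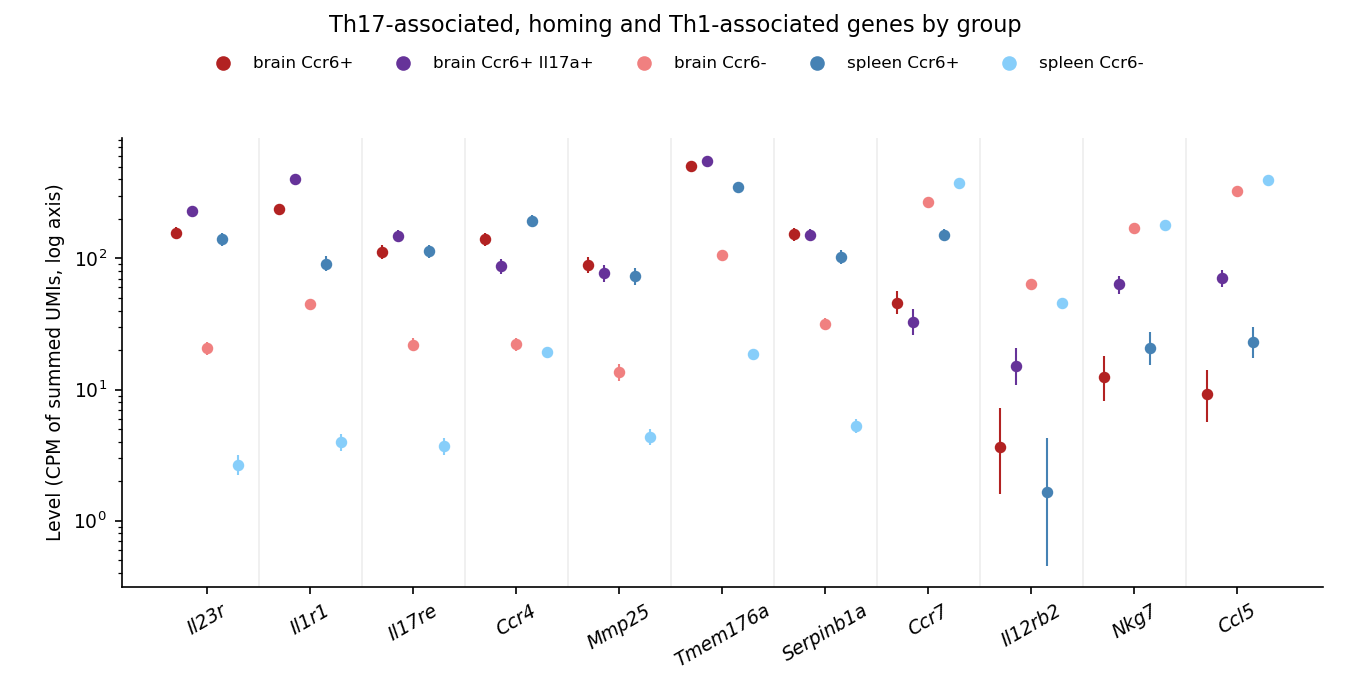
Levels of 11 genes in CPM of summed UMIs (log axis) in brain Ccr6+, brain Ccr6+ Il17a+, brain Ccr6-, spleen Ccr6+ and spleen Ccr6- cells; points are 1 library's sum and bars are 95% counting intervals. Il23r and Mmp25 stand high in the Ccr6+ groups of both tissues, and Ccl5 and Nkg7 stand low there.

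The transcription factors split into 2 sets. Rora, a regulator of the Th17 program, was at 692 CPM in Ccr6+ against 427 CPM in Ccr6- cells of the brain (1.62, 1.53 to 1.72) and at 370 CPM in Ccr6+ against 119 CPM in Ccr6- cells of the spleen (3.10, 2.89 to 3.33). Maf and Ahr, further regulators of Th17 cells, were higher in both tissues as well, Maf by 1.77 and 2.42 and Ahr by 1.58 and 4.31 in brain and spleen. Irf4, Rbpj and Bhlhe40, which act downstream of activation, did not pass the limit: Irf4 had a ratio of 0.973 (0.772 to 1.22) in brain, Rbpj of 0.998 (0.852 to 1.16) and Bhlhe40 of 1.40 (1.32 to 1.49). Of the listed regulators 5 of 18 were higher in brain and 4 of 15 in spleen, and none was lower. Basp1, among those higher in brain, rests on 1 cell, which held 96.9% of its UMIs.

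Surface and other genes known from Th17 cells were mostly higher, with 17 of 21 higher in brain and 16 of 20 in spleen, and none lower. Tmem176a and Tmem176b, membrane proteins of intracellular vesicles, had ratios of 4.85 (4.48 to 5.24) and 4.52 (4.23 to 4.84) in brain and of 18.9 (17.2 to 20.8) and 14.9 (13.7 to 16.2) in spleen. The brain Tmem176a ratio was 3.23 with matching. Mmp25, a membrane-bound metalloproteinase, was at 89.1 CPM in brain Ccr6+ cells against 13.6 CPM in brain Ccr6- cells (6.57, 5.35 to 8.06), and at 73.3 CPM in spleen Ccr6+ cells against 4.37 CPM in spleen Ccr6- cells (16.8, 13.6 to 20.6), a spleen ratio that was 6.56 with matching on total UMIs. Serpinb1a, an inhibitor of granule proteases, was at 152 CPM in Ccr6+ against 31.7 CPM in Ccr6- cells of the brain and at 103 CPM in Ccr6+ against 5.28 CPM in Ccr6- cells of the spleen. Its spleen ratio of 19.4 (16.2 to 23.3) was 49.6 with matching and 10.7 against all Ccr6- cells of the tissue, those with Il17a, Ifng, Foxp3 or Cd79a UMIs included. Aqp3, a water and glycerol channel, had ratios of 4.47 (3.71 to 5.38) in brain and 7.74 (6.48 to 9.21) in spleen. Cysltr1, a leukotriene receptor, had ratios of 5.14 (4.15 to 6.34) and 15.0, and Actn2, an actinin, of 3.88 (3.40 to 4.41) and 10.6 (9.27 to 12.2). S100a4, a calcium-binding protein of effector T cells, reached 937 CPM in brain Ccr6+ cells against 378 CPM in brain Ccr6- cells, and 1278 CPM in spleen Ccr6+ cells against 218 CPM in spleen Ccr6- cells.

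The genes that followed Ccr6 most closely were ranked by the smaller of the brain and spleen interval bounds of the ratio over Ccr6- cells. Slc22a4, the ergothioneine transporter, came first, at 36.8 CPM in brain Ccr6+ cells against 2.66 CPM in brain Ccr6- cells and at 43.0 CPM in spleen Ccr6+ cells against 2.31 CPM in spleen Ccr6- cells. St6galnac1, a sialyltransferase, was second, at 48.2 CPM in Ccr6+ against 4.24 CPM in Ccr6- cells of the brain and 32.7 CPM in Ccr6+ against 1.89 CPM in Ccr6- cells of the spleen. Pxdc1, Il23r, Ccr4, Mmp25, Il1r1, Tmem176a and Il17re were also among the first 10. Pxdc1 had ratios of 9.22 (7.02 to 12.1) in brain and 27.9 (19.9 to 39.4) in spleen, and 5.83 in brain with matching on total UMIs. In spleen Hlf, a PAR bZIP transcription factor, had a ratio of 24.4 (18.7 to 32.0), Or13a27, an olfactory receptor gene, 17.5 (14.0 to 22.0), and Cpd, a carboxypeptidase, 13.1 (11 to 15.6). The likeness is over 2 libraries only.

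Th1 and cytotoxic genes were low in Ccr6+ cells. Il12rb2, the inducible IL-12 receptor chain, was at 3.68 CPM in brain Ccr6+ cells against 64.2 CPM in brain Ccr6- cells (0.0572, 0.0246 to 0.113), and at 1.66 CPM in spleen Ccr6+ cells against 45.8 CPM in spleen Ccr6- cells (0.0362, 0.00985 to 0.0928). The brain Il12rb2 ratio was 0.0277 against all brain Ccr6- cells and 0.171 with each cell weighted equally. Tbx21, the Th1 regulator, was at 5.51 CPM in Ccr6+ against 36.4 CPM in Ccr6- cells of the brain and at 8.28 CPM in Ccr6+ against 36.2 CPM in Ccr6- cells of the spleen. Ccl5, a chemokine of cytotoxic and Th1 cells, had a ratio of 0.0283 (0.0172 to 0.0437) in brain and 0.0588 (0.0444 to 0.0763) in spleen, and Nkg7, a granule protein, 0.0729 (0.0480 to 0.106) and 0.115 (0.0855 to 0.152). Without the cells with an invariant NKT receptor, which the spleen Ccr6- group held and the Ccr6+ group did not, the spleen ratios were 0.0920 for Ccl5 and 0.187 for Nkg7. With at least 2 Ccr6 UMIs required, they were 0.00224 for Ccl5 and 0.00429 for Nkg7 in brain and 0.0169 for Ccl5 and 0.0408 for Nkg7 in spleen. A single cell held 40.0% of the Ccl5 UMIs of the brain Ccr6+ cells and 41.1% of those of the spleen Ccr6+ cells. Cxcr3, the chemokine receptor most often used to mark Th1 cells, was at 66.6 CPM in Ccr6+ against 138 CPM in Ccr6- cells of the brain (0.481, 0.404 to 0.570) and at 123 CPM in Ccr6+ against 149 CPM in Ccr6- cells of the spleen (0.824, 0.731 to 0.926), a difference between tissues that was not tested. Of the Th1 list 12 of 15 measured genes were lower in brain and 9 of 14 in spleen. Of the cytotoxic list 9 of 10 were lower in brain and 6 of 7 in spleen, and Klrk1, which encodes NKG2D, was higher in both tissues, a call lost in brain with at least 2 Ccr6 UMIs required and in spleen under TMM scaling, which aligns the bulk of genes.

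Homing genes of naive and central memory cells were also low, set against Ccr6- groups that take in most of the cells with Ccr7 and Lef1. Ccr7, the chemokine receptor for lymph node entry, had ratios of 0.172 (0.140 to 0.210) in brain and 0.406 (0.365 to 0.450) in spleen, and Lef1, a factor of naive T cells, 0.275 (0.241 to 0.313) and 0.230 (0.207 to 0.255). Against all Ccr6- cells of the brain the Ccr7 ratio was 0.351. Dapl1, a gene of naive and memory T cells, had 0 UMIs in brain Ccr6+ cells against 1088 in brain Ccr6- cells, at most 0.0176 of their level when 3 counts are taken as the floor, and at most 0.0383 against all Ccr6- cells of the brain. Igfbp4 had a ratio of 0.0219 in brain and 0.0437 in spleen, where 1 cell held 64.0% of its 25 UMIs. The Igfbp4 ratio was 0.0528 in brain against all Ccr6- cells and 0.0225 in spleen with at least 2 Ccr6 UMIs required. The costimulatory receptor Cd27 had ratios of 0.135 (0.0909 to 0.194) and 0.239 (0.203 to 0.280), and the spleen value was 0.131 with at least 2 Ccr6 UMIs required. Of the recirculation list 11 of 16 genes were lower and 1 higher in brain, the survival receptor Il7r, and 9 of 16 were lower and 2 higher in spleen, Il7r and the integrin chain Itgb1. With brain Ccr6- cells matched to the Ccr6+ cells on total UMIs, 6 of the 16 recirculation genes were lower.

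Klf2, which maintains the egress receptor S1pr1, lay on different sides of a ratio of 1 in the tissues, which was not tested. It was at 685 CPM in brain Ccr6+ cells against 1056 CPM in brain Ccr6- cells (0.649, 0.615 to 0.685), and at 907 CPM in spleen Ccr6+ cells against 622 CPM in spleen Ccr6- cells (1.46, 1.40 to 1.52). Without cells of other lineages Klf2 was at 644 CPM in brain Ccr6+ cells. S1pr1 itself was at 199 CPM in Ccr6+ against 235 CPM in Ccr6- cells of the brain and at 281 CPM in Ccr6+ against 279 CPM in Ccr6- cells of the spleen. The integrin chain Itgb7 was higher in both tissues, at ratios of 1.71 (1.60 to 1.82) and 2.32 (2.22 to 2.43). Itga1, a collagen-binding integrin of resident cells, had 2 UMIs in brain Ccr6+ cells against 508 in brain Ccr6- cells and 0 UMIs in spleen Ccr6+ cells against 740 in spleen Ccr6- cells. On the residency list 3 of 21 genes were higher and 5 lower in brain, and 5 of 19 were higher and 5 lower in spleen. Among follicular helper genes Icos was higher in both tissues (1.62 in brain, 1.61 in spleen), while Izumo1r, which encodes folate receptor 4, was lower (0.245 and 0.363).

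Over all genes of at least 20 CPM, 362 of 6616 (5.47%) were higher and 331 (5.0%) lower in brain Ccr6+ cells, and 559 of 6889 (8.11%) were higher and 279 (4.05%) lower in spleen Ccr6+ cells. Ccr6 itself, on which the rule chose the cells, is counted among the genes higher in each tissue and in both. Without cells of other lineages 335 genes were higher and 335 lower in brain. Scaling by TMM factors gave 318 higher and 377 lower in brain. It moved every spleen log2 ratio by -0.10 and gave 437 higher and 373 lower in spleen, so that the higher share of all calls was 45.8% in place of 52.2% in brain and 54.0% in place of 66.7% in spleen. Of 6330 genes measured in both tissues, 248 were higher in both, which is 68.5% of the brain list and 44.4% of the spleen list. Another 134 were lower in both, which is 40.5% of the brain list and 48.0% of the spleen list, and 1 gene, the receptor V gene Trav9-1, was lower in brain (0.606, 0.405 to 0.878) and higher in spleen (1.51, 1.14 to 1.96).

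**Figure D2:**
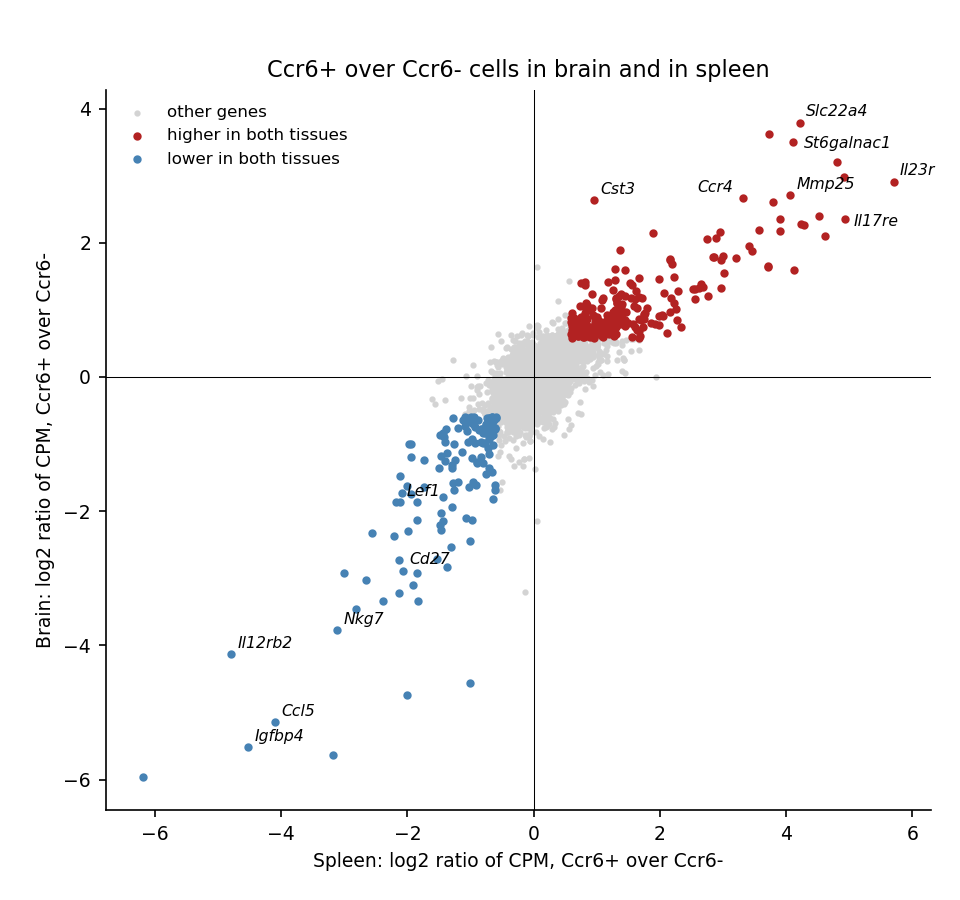
Log2 ratio of CPM in Ccr6+ over Ccr6- cells for genes of at least 20 CPM in both tissues, in spleen (x axis) and in brain (y axis), with genes higher in both tissues in red and genes lower in both in blue. Ccr6 and genes without a UMI in any 1 of the groups, such as Dapl1, are not drawn. Il23r and Il17re lie to the far right, since their spleen ratios of 52.1 and 30.6 exceed the brain ratios of 7.53 and 5.10; Cst3 rests on 1 brain cell.

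Cells just inside the Ccr6 limit, with exactly 1 Ccr6 UMI, were set beside those just outside, with none, and those further in. In spleen Il23r stood at 2.68, 63.3, 129 and 219 CPM in cells with 0, 1, 2 and 3 or more Ccr6 UMIs, a level that was higher in each class than in the one before. Ikzf2, which encodes the regulatory T cell factor Helios, ran otherwise, at 115, 274, 80.0 and 31.6 CPM, and the inhibitory receptor Ctla4 at 148, 247, 147 and 74.7 CPM. The spleen cells with 1 Ccr6 UMI therefore held lower Il23r and higher Ikzf2 and Ctla4 levels than those with 3 or more, and Ikzf2 had 23.4% of its spleen UMIs in 1 cell. In brain Il23r stood at 20.6, 138, 112 and 201 CPM, with no steady order above 0. Brain Ccr7 was low already at 1 Ccr6 UMI, at 267, 49.7, 66.0 and 29.0 CPM. Median UMIs per cell in the classes of 1, 2 and 3 or more were 7452, 7481 and 8503 in spleen and 10811, 12015.5 and 11839 in brain, so depth differed between classes and its part was not tested.

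**Figure D3:**
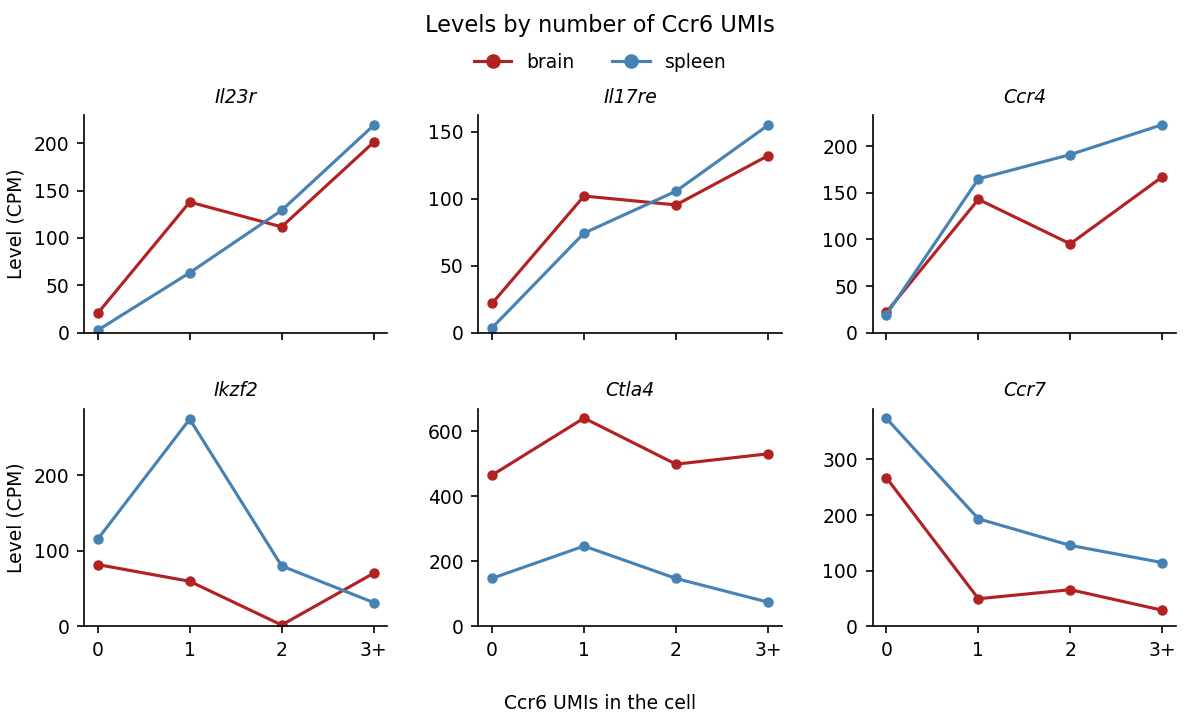
Level in CPM (y axis, from 0) of 6 genes in cells with 0, 1, 2 and 3 or more Ccr6 UMIs (x axis), in brain (red) and spleen (blue). In spleen Il23r climbs with each class while Ikzf2 peaks at 274 CPM in cells with 1 Ccr6 UMI.

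Th17 genes were also counted cell by cell. At 3000 UMIs per cell, 2 or more of Il23r, Il1r1 and Il17re were detected in 26.8% of brain Ccr6+ cells against 2.51% of brain Ccr6- cells. In spleen the shares were 19.9% of Ccr6+ cells against 0.423% of Ccr6- cells, and in brain Ccr6+ Il17a+ cells 45.7%. At full depth the shares were 62.2% of Ccr6+ against 9.43% of Ccr6- cells in brain, 41.8% of Ccr6+ against 0.866% of Ccr6- cells in spleen, and 86.9% in Ccr6+ Il17a+ cells. None of the 3 genes was detected at full depth in 11.9% of brain and 32.7% of spleen Ccr6+ cells.

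Set against brain Ccr6+ Il17a+ cells, a contrast that the rule also drew on through Il17a and Ifng, brain Ccr6+ cells carried less of the Th17 effector genes but about as much of several markers. The Ccr6+ Il17a+ cells had no limit on Ifng, and the part of Ifng+ cells in the differences was not tested. Il17f was at 16.5 CPM in brain Ccr6+ cells against 159 CPM in Ccr6+ Il17a+ cells (0.104, 0.0720 to 0.147), and Il22 at 41.8 CPM in Ccr6+ against 149 CPM in Ccr6+ Il17a+ cells (0.281, 0.221 to 0.354), with 29.7% of the Il22 UMIs of the Ccr6+ cells in 1 cell. Il1r1 was at 238 CPM in Ccr6+ against 399 CPM in Ccr6+ Il17a+ cells (0.597, 0.536 to 0.665). Il23r, at 155 CPM in Ccr6+ against 228 CPM in Ccr6+ Il17a+ cells, had a ratio of 0.682 (0.594 to 0.781), which does not reach the limit. Mmp25 (1.16, 0.945 to 1.42), Serpinb1a (1.01, 0.871 to 1.18) and Tmem176b (0.967, 0.902 to 1.04) had ratios near 1. Il1r2, the decoy IL-1 receptor, was at 14.7 CPM in Ccr6+ against 226 CPM in Ccr6+ Il17a+ cells (0.0650, 0.0440 to 0.0928), and Igfbp7, a secreted binding protein, at 14.2 CPM in Ccr6+ against 166 CPM in Ccr6+ Il17a+ cells (0.0857, 0.0575 to 0.124), or 0.0507 with at least 2 Ccr6 UMIs required. Penk, the enkephalin precursor, was at 2.76 CPM in Ccr6+ against 56.4 CPM in Ccr6+ Il17a+ cells, with 48.9% of the UMIs of the Ccr6+ Il17a+ cells in 1 cell.

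In the other direction, Klf2 was at 685 CPM in brain Ccr6+ cells against 190 CPM in Ccr6+ Il17a+ cells (3.61, 3.25 to 4.01, or 3.35 without cells of other lineages), and S1pr1 at 199 CPM in Ccr6+ against 72.1 CPM in Ccr6+ Il17a+ cells (2.76, 2.32 to 3.30). Both belong to tissue egress, as does Klf3 (1.74, 1.39 to 2.20), and Tcf7, a factor of memory and stem-like T cells, had a ratio of 1.89 (1.73 to 2.07). On the recirculation list 6 of 15 genes were higher and 1 lower, where 4.96% and 6.10% of all genes of at least 10 CPM were. On the interferon response list 9 of 15 genes were higher and none lower, among them Ifit1 (2.45, 1.64 to 3.70) and Isg15 (1.73, 1.42 to 2.11). Ccr4 was higher too, at 140 CPM in Ccr6+ against 86.9 CPM in Ccr6+ Il17a+ cells (1.61, 1.35 to 1.93), and so was Cysltr1 (2.60, 1.96 to 3.48). Of the regulators 8 of 18 were lower, with Irf4 at 41.8 CPM in Ccr6+ against 198 CPM in Ccr6+ Il17a+ cells (0.211, 0.167 to 0.264), Rbpj at 0.339 (0.287 to 0.399) and Bhlhe40 at 0.432 (0.406 to 0.460). On the residency list 8 of 18 genes were lower and 1 higher, and on the inhibitory receptor list 5 of 10 were lower, among them Ctla4 at 563 CPM in Ccr6+ against 1368 CPM in Ccr6+ Il17a+ cells (0.411, 0.385 to 0.439). Over all genes of at least 20 CPM, 297 of 6622 (4.49%) were higher and 357 (5.39%) lower, and Il17a, which the rule kept out of the Ccr6+ cells, is counted among the lower.

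Between the tissues, Ccr6+ cells of the brain and spleen had like levels of several Th17 receptors and unlike levels of activation genes. Il23r (155 CPM in brain and 139 CPM in spleen Ccr6+ cells, 1.11, 0.955 to 1.30), Il17re (0.988, 0.828 to 1.18) and Mmp25 (1.22, 0.987 to 1.5) had intervals that included 1. Il1r1 was higher in brain, at 238 CPM in brain against 91.0 CPM in spleen (2.62, 2.23 to 3.08). Other genes close to Ccr6 had intervals that excluded 1, given here without cells of other lineages. Ccr4 was lower in brain (0.727, 0.627 to 0.842), which does not reach the limit. Pxdc1 (1.70, 1.29 to 2.25), St6galnac1 (1.48, 1.10 to 2.01) and Tmem176a (1.45, 1.32 to 1.59) were higher, the last 2 short of the limit. Of the Th17 receptor list 1 of 15 genes was higher in brain and 2 lower, Il6ra and Il6st. Of the regulators 11 of 18 were higher and 1 lower, with Bhlhe40 at 628 CPM in brain against 48.4 CPM in spleen (13.0, 10.7 to 15.8), Nfil3 at 76.3 CPM in brain against 7.45 CPM in spleen (10.2, 6.28 to 17.7) and Irf4 at 41.8 CPM in brain against 8.69 CPM in spleen (4.81, 2.97 to 8.14). Basp1, which rests on 1 brain cell, is among the 11. Other cytokines were mostly higher in brain Ccr6+ cells, 9 of 11, with Tnfsf8, the CD30 ligand, at 679 CPM in brain against 180 CPM in spleen (3.78, 3.39 to 4.21), Tnfsf11, the RANK ligand, at 142 CPM in brain against 37.7 CPM in spleen (3.78, 2.98 to 4.83), and Tnf at 114 CPM in brain against 46.8 CPM in spleen (2.45, 1.95 to 3.08). Ccl3 and Ccl4 are among the 9, and these list counts keep the brain cell with myeloid markers.

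Genes of early activation and of the AP-1 family differed most. Fos was at 1838 CPM in brain Ccr6+ cells against 70.4 CPM in spleen Ccr6+ cells (26.1, 22.4 to 30.6), Fosb at 310 CPM in brain against 8.69 CPM in spleen (35.6, 23.1 to 57.9), and Junb at 5407 CPM in brain against 564 CPM in spleen (9.59, 9.06 to 10.1). Nr4a3, an orphan receptor induced by TCR signals, was at 202 CPM in brain against 2.48 CPM in spleen (81.2, 37.0 to 223), Egr1 at 350 CPM in brain against 15.3 CPM in spleen (22.9, 16.4 to 32.7), Klf4 at 157 CPM in brain against 6.21 CPM in spleen (25.3, 15.1 to 45.7) and Maff at 73.0 CPM in brain against 1.66 CPM in spleen (44.1, 16.9 to 164). Matching the cells on total UMIs gave 41.1 for Egr1 and 39.5 for Klf4, and requiring at least 2 Ccr6 UMIs gave 151 for Nr4a3 and 107 for Maff. Atf3, a stress-induced factor, had 322 UMIs in brain Ccr6+ cells, 29.2% of them in 1 cell, against 0 in spleen Ccr6+ cells, and Cdkn1a, a cell cycle inhibitor, 144 UMIs in brain against 1 in spleen. Without cells of other lineages Atf3 had 228 UMIs in brain Ccr6+ cells. The ratios of brain over spleen were then 24.9 for Fos, 19.8 for Egr1 and 21.8 for Klf4. All 9 early response genes and 9 of 14 stress and AP-1 genes were higher in brain Ccr6+ cells, where 8.18% of all genes of at least 10 CPM were higher and 13.8% lower. Their median log2 ratios were 3.26 and 2.30, against 2.81 and 1.91 for the same lists between brain and spleen Ccr6- cells, where 9.34% of genes of at least 10 CPM were higher and 7.65% lower. AP-1 and stress genes are also known to be induced while cells are released from solid tissue, and tissue and preparation cannot be told apart here. Per cell the summed stress list had a median of 13506 CPM in brain and 3294 CPM in spleen Ccr6+ cells, and of 11240 CPM in brain and 3123 CPM in spleen Ccr6- cells.

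**Figure D4:**
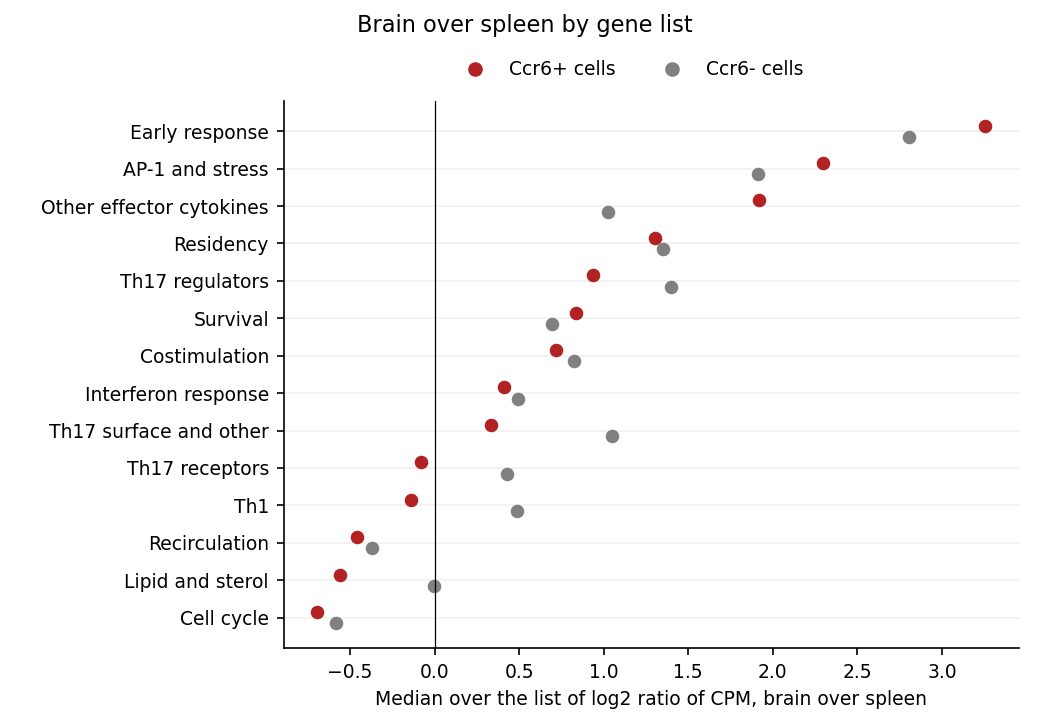
Median log2 ratio of CPM, brain over spleen (x axis), over the measured genes of 14 lists (y axis), for Ccr6+ cells (red) and Ccr6- cells (grey). Early response genes lie farthest right in both, at 3.26 and 2.81, and the Th17 receptors of Ccr6+ cells lie near 0.

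Residency genes were higher in brain Ccr6+ cells for 12 of 18, with Rgs1, a regulator of chemokine receptor signals, at 798 CPM in brain against 87.7 CPM in spleen (9.10, 7.88 to 10.5) and Cd69, which retains cells in tissue, at 582 CPM in brain against 130 CPM in spleen (4.47, 3.94 to 5.07). Cxcr6, another residency gene, was at 227 CPM in brain against 261 CPM in spleen (0.872, 0.774 to 0.983), which does not reach the limit. The lists overlap, so their counts are not separate. Cd69, Nr4a1 and Nr4a2 are on the residency and early response lists, Bhlhe40 on the residency and regulator lists, and Irf4 on the regulator and early response lists. Tissue and preparation cannot be told apart for these genes either. Ctla4 was at 563 CPM in brain against 156 CPM in spleen (3.60, 3.20 to 4.05) and Icos at 665 CPM in brain against 243 CPM in spleen (2.74, 2.49 to 3.02). Survival genes were higher for 6 of 9, with Bcl2 at 357 CPM in brain against 192 CPM in spleen (1.87, 1.66 to 2.10). Lower in brain Ccr6+ cells were Ccr7 (0.303, 0.241 to 0.379), the Notch target Dtx1, at 21.1 CPM in brain against 176 CPM in spleen (0.120, 0.0866 to 0.163), and Ddit4, an inhibitor of mTOR signalling, at 117 CPM in brain against 386 CPM in spleen (0.303, 0.262 to 0.348). Of 10 cell cycle genes 5 were lower and none higher, with Mki67, a marker of dividing cells, at 29.4 CPM in brain against 91.9 CPM in spleen (0.320, 0.238 to 0.424). Sterol and lipid genes were lower for 5 of 10, among them Hmgcs1 of cholesterol synthesis (0.303, 0.190 to 0.467). In all, 577 of 6897 genes (8.37%) were higher and 907 (13.2%) lower at a median log2 ratio of -0.15. TMM scaling moved every log2 ratio by 0.14 and gave 814 higher and 537 lower, so the higher share of calls was 60.3% in place of 38.9%, with 11 of the 18 regulators, 13 of the 18 residency genes and 2 of the Th17 receptors higher and 4 cell cycle and 3 lipid genes lower. Between brain and spleen Ccr6- cells 9.70% were higher and 5.57% lower. Several lists had like counts there, with 14 of 20 residency genes, 12 of 16 regulators, 6 of 9 survival genes and 7 of 10 other cytokines higher and 5 of 10 cell cycle genes and 4 of 9 lipid genes lower in brain. Of the Th17 receptors 7 of 14 were higher and 2 lower in brain Ccr6- cells, and none of these list differences between Ccr6+ and Ccr6- cells was tested.

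Receptor sequences, which the choice of cells used only to limit chain numbers, gave a second readout of the same cells. A clonotype was defined by the V gene and CDR3 bases of both chains, and 169 brain and 270 spleen Ccr6+ cells had both. Of these, 72 brain cells (42.6%, 35.0 to 50.4%) were in clones of at least 2 cells of the tissue, against 26.6% of brain Ccr6- cells. In spleen 58 Ccr6+ cells (21.5%, 16.7 to 26.9%) were, against 9.06% of spleen Ccr6- cells. The Ccr6- groups take in most of the 546 brain and 3730 spleen cells with Ccr7 and Lef1, a class rich in naive and central memory cells. Other Ccr6- cells were not set apart from these, so whether the shares are particular to Ccr6+ cells was not tested. The Ccr6+ cells fell into 145 brain and 248 spleen clonotypes, 375 in all, with at most 5 Ccr6+ cells of a tissue in any clonotype. No clone therefore made up the set.

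The CDR3 regions of 6 clones are shown because these clones held most Ccr6+ cells of a tissue or link them to cytokine-bearing cells. Sequences run 5′ to 3′ as in the deposited contigs, and capitals mark bases outside the stretches at either end that at least 50% of the CDR3s with the same V or J gene in these libraries share. The clone TRBV5 TRAV2 held most, with 5 of its 8 brain cells and all 5 of its spleen cells Ccr6+ and the other 3 brain cells Il17a+.
TRBV5 TRAV2 beta: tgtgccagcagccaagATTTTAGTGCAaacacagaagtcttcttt
TRBV5 TRAV2 alpha: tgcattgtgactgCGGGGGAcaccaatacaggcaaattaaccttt
Clone TRBV31 TRAV5-4 had 4 Ccr6+ cells of 7 in brain, the other 3 being Ccr6- within the same limits, and no spleen cell.
TRBV31 TRAV5-4 beta: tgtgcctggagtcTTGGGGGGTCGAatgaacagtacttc
TRBV31 TRAV5-4 alpha: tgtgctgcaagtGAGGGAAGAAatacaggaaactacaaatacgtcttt
Clone TRBV12-2 TRAV14N-1 had 3 Ccr6+ and 4 Ifng+ cells of 9 in brain.
TRBV12-2 TRAV14N-1 beta: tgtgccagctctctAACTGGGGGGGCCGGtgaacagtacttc
TRBV12-2 TRAV14N-1 alpha: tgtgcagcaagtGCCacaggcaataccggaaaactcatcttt
Clone TRBV26 TRAV5N-4 had 3 Ccr6+ and 1 Il17a+ cell of 7 in brain, and both of its 2 spleen cells were Ccr6+.
TRBV26 TRAV5N-4 beta: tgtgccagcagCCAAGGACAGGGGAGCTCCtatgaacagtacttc
TRBV26 TRAV5N-4 alpha: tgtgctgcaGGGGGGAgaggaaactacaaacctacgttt
Clone TRBV26 TRAV6-3 had 5 Ccr6+ cells of 8 in spleen and 2 of 11 in brain.
TRBV26 TRAV6-3 beta: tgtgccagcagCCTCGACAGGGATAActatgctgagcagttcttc
TRBV26 TRAV6-3 alpha: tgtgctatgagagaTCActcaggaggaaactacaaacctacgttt
Clone TRBV20 TRAV7D-2, the largest with a brain Ccr6+ cell, had only 2 such cells of 48, with 20 Il17a+ and 30 Ifng+ cells.
TRBV20 TRAV7D-2 beta: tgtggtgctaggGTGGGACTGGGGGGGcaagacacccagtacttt
TRBV20 TRAV7D-2 alpha: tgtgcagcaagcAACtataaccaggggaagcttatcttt

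The 2 TRBV26 clones differ in their capitals and in their TRAV gene, so they are separate clones of 1 beta gene. All 6 beta chains differ in the capital stretch, which is 11 bases long in TRBV5 TRAV2 and 19 in TRBV26 TRAV5N-4. V genes were listed if found in at least 5% of a tissue's Ccr6+ clonotypes, a limit that favours genes higher on that side. Among them TRAV13-1 was in 6.05% (3.42 to 9.78%) of spleen Ccr6+ clonotypes against 2.48% (2.06 to 2.96%) of spleen Ccr6- clonotypes. It passed the limit only through the Ccr6+ side, so the difference is not read as a bias in receptor use. For the beta genes the intervals overlapped, with TRBV5 in 13.8% (8.63 to 20.5%) of brain Ccr6+ clonotypes against 9.20% of brain Ccr6- clonotypes. TRBV12-2 and TRBV13-2 together were in 7.59% of Ccr6+ against 10.7% of Ccr6- clonotypes in brain and in 9.27% of Ccr6+ against 12.8% of Ccr6- clonotypes in spleen.

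Clone mates with Il17a were common among brain Ccr6+ cells. Of the 72 brain Ccr6+ cells in clones, 37 (51.4%, 39.3 to 63.4%) shared the clone with an Il17a+ brain cell, against 85 of 315 brain Ccr6- cells in clones (27.0%, 22.2 to 32.2%). Larger clones have more chances of an Il17a+ mate, so the shares were also taken by clone size. They were 36.6% of Ccr6+ against 14.0% of Ccr6- cells in clones of 2 to 4 cells, and 66.7% of Ccr6+ against 39.8% of Ccr6- cells in clones of 5 to 19. In clones of 20 or more they were 4 of 4 Ccr6+ cells against 15 of 33 Ccr6- cells. There were 25 brain clonotypes with both a Ccr6+ and an Il17a+ cell, 20 with a Ccr6+ and an Ifng+ cell, and 2 with a Ccr6+ and a Foxp3+ cell. In spleen 1 clonotype joined a Ccr6+ and a Foxp3+ cell.

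Ccr6+ cells were also more often of clonotypes found in the other tissue. They were more often in clones too, and larger clones have more chances of being seen in both libraries. None of the shares in this paragraph was taken by clone size, so the part of clone size was not tested. Nor was the part of the cells with Ccr7 and Lef1 in the Ccr6- groups. Of brain Ccr6+ cells 39 of 169 (23.1%, 17 to 30.2%) had a clonotype seen in spleen, against 11% of brain Ccr6- cells. Of spleen Ccr6+ cells 51 of 270 (18.9%, 14.4 to 24.1%) had a clonotype seen in brain, against 4.71% of spleen Ccr6- cells. Counted by clonotype the shares were 19.3% of Ccr6+ against 8.05% of Ccr6- clonotypes in brain and 15.7% of Ccr6+ against 2.85% of Ccr6- clonotypes in spleen. An Il17a+ brain cell was in the clonotype of 24 of 270 spleen Ccr6+ cells (8.89%, 5.78 to 12.9%), against 33 of 5120 spleen Ccr6- cells (0.645%). Among spleen clonotypes also seen in brain, 15 of 39 with a Ccr6+ cell (38.5%, 23.4 to 55.4%) held an Il17a+ brain cell, against 23 of 139 with a Ccr6- cell (16.5%, 10.8 to 23.8%). For Ifng+ brain cells the order was the reverse, 16 of 39 clonotypes with a Ccr6+ cell (41.0%, 25.6 to 57.9%) against 89 of 139 with a Ccr6- cell (64.0%, 55.5 to 72.0%). The intervals overlapped in both cases, and a clonotype with both Ccr6+ and Ccr6- spleen cells counts on both sides.

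**Figure D5:**
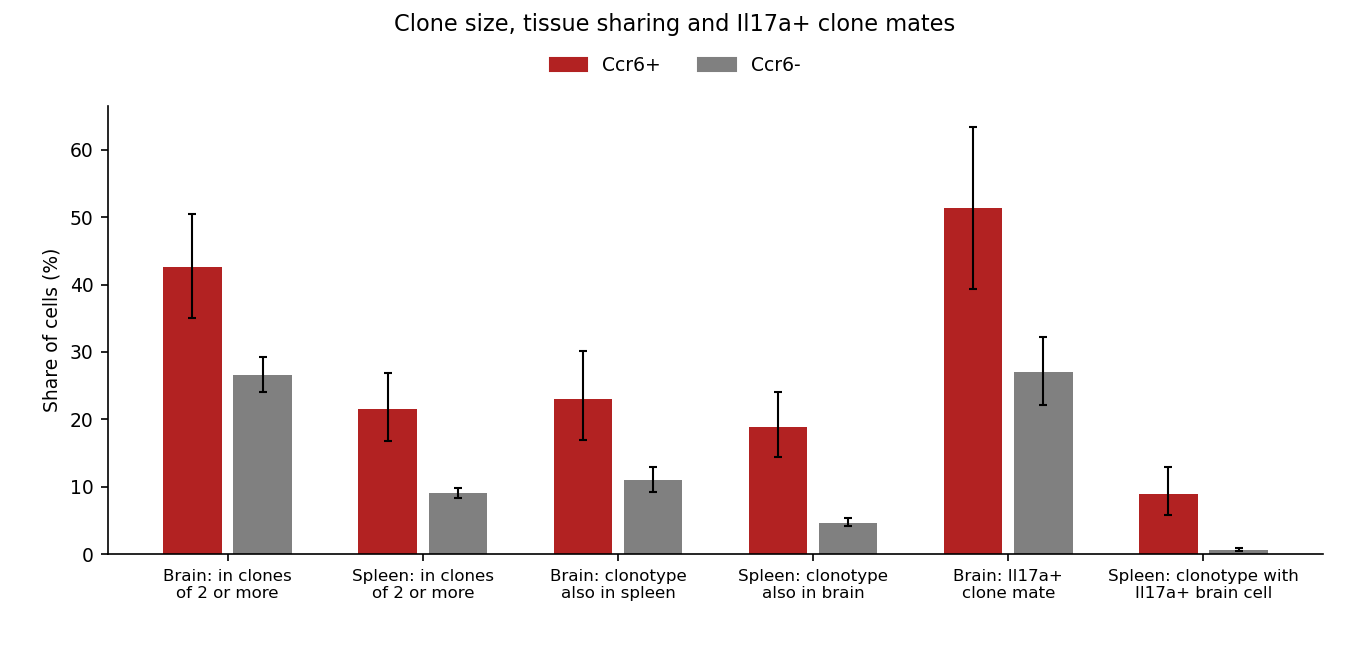
Share of cells (y axis, percent) of Ccr6+ (red) and Ccr6- (grey) cells in clones of 2 or more, of clonotypes seen in the other tissue, with an Il17a+ brain clone mate, and of spleen cells whose clonotype held an Il17a+ brain cell; bars are shares with 95% Clopper-Pearson intervals. Ccr6+ shares lie above Ccr6- shares in each of the 6 pairs, for example 51.4% against 27.0% for Il17a+ clone mates.

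In 18 clonotypes Ccr6+ cells were found in both tissues, 26 in brain and 28 in spleen, and 8 of these clonotypes also had an Il17a+ brain cell and 6 an Ifng+ brain cell. Within them several Th17-associated genes had like levels in the tissues: Il23r at 160 CPM in brain against 173 CPM in spleen Ccr6+ cells (0.925, 0.606 to 1.41), Mmp25 at 121 CPM in brain against 120 CPM in spleen (1.0, 0.608 to 1.66), and Tmem176b at 692 CPM in both (1.0, 0.817 to 1.23). Il1r1 was at 261 CPM in brain against 162 CPM in spleen (1.61, 1.10 to 2.40). Activation genes were higher in brain within the same clonotypes too, some at other ratios than over all Ccr6+ cells. Junb was at 5068 CPM in brain against 350 CPM in spleen (14.5, 11.8 to 18.1), Rgs1 at 764 CPM in brain against 67.7 CPM in spleen (11.3, 6.98 to 19.4), Ctla4, at a ratio of 3.60 over all Ccr6+ cells, at 392 CPM in brain against 15.0 CPM in spleen (26.0, 9.91 to 97.1, on 4 spleen UMIs), and Nr4a1 had 88 UMIs in brain against 0 in spleen. S100a4 was at 1504 CPM in brain against 2602 CPM in spleen (0.578, 0.513 to 0.652), and Dtx1 at 45.7 CPM in brain against 162 CPM in spleen (0.283, 0.143 to 0.527). These cells are part of the sets compared above, and here too tissue and preparation cannot be told apart.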

How the data were processed

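For the RNA library of each tissue the authors deposited a matrix of raw UMI counts, and for the TCR library a table of contigs with V, J and CDR3 calls and UMI counts. The submitters' processing notes list Cell Ranger 9.0.0. They also list genome builds with no stated use, and coordinates are left out. Counts were summed per group and divided by total UMIs, and ratios carry exact conditional binomial intervals. TMM factors came from edgeR 4.0.16. Doublets were handled through the limits on chain numbers (179 brain and 315 spleen barcodes left out), which miss doublets with 1 recovered receptor. Clonotypes used the alpha chain with most UMIs. The procedure was tested on simulated data. The members and gene lists were chosen with earlier results of these data known. Genes named are the 12 with the ratio bound farthest from 1 either way, taken from genes reaching 50 CPM (6 against Ccr6+ Il17a+ cells), without receptor, ribosomal, mitochondrial and sex-linked genes, plus the Th17 lists. Other list members and Trav9-1 were named after their values were seen. Of 337 list genes, 5 had no row. Leaving out cells of other lineages (at least 30 UMIs of the B, myeloid or CD8 markers) was chosen after seeing the data. A few planned genes are not reported here, and the background class of cells and the count of Th17 receptor genes per cell were taken without them, a change made after the data were seen.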

Additional observations from a re-analysis of the deposited data

How the results depend on the processing

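Alternatives changed the scaling, the weight of cells, the depth, the limits on cells, the comparison cells, the definition of a clonotype and the threshold. No paired analysis was possible because each tissue has 1 library, and for the same reason no library could be left out. Of the values of named genes under the alternatives, 1090 kept their direction and side of the limit, 18 kept the direction without passing, and 18 reversed. The 1090 include 84 values for no minimum level and 84 for a ratio of 2, settings that leave a gene's ratio as it was. Leaving out invariant NKT receptor cells likewise changes nothing where neither group held such cells. The total is therefore not a measure of stability.

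With no minimum level, counts of genes were 1010 higher and 763 lower in brain Ccr6+ over Ccr6- cells, 1316 and 746 in spleen, 983 and 1449 in brain over spleen Ccr6+ cells, and 639 and 685 against Ccr6+ Il17a+ cells. With a ratio of 2 they were 128 and 111, 251 and 122, 282 and 227, and 79 and 132, in the same order. With each cell weighted equally 657 genes were lower in brain Ccr6+ than in Ccr6- cells, and under TMM scaling 537 were lower in brain than in spleen Ccr6+ cells. At 5000 UMIs per cell a Ccr6 UMI was found in 8.29% of brain and 5.03% of spleen cells, and another cytokine in 45.3% of brain and 24.6% of spleen Ccr6+ cells. The shares of Ccr6+ cells with an Il17a+ clone mate (brain) or a clonotype in the other tissue stayed within the interval of the main value under every definition of a clonotype or set tried; other clone values were not recomputed.

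The reversed values were those of genes held mostly by 1 cell. With at least 2 Ccr6 UMIs, the ratios over brain Ccr6- cells were 0.423 for C1qa, 0.520 for C1qb and 0.564 for C1qc. Those over Ccr6+ Il17a+ cells were then 0.192 for C1qa, 0.244 for C1qb, 0.122 for C1qc and 0.660 for Cst3, and those of brain over spleen Ccr6+ cells 1.60 for Cd74 and 1.05 for H1f5, a histone gene with 52.5% of its spleen UMIs in 1 cell. With paired receptors only, C1qa stood at 0.470 over brain Ccr6- cells, C1qa and C1qb at 0.939 and Cst3 at 0.803 over Ccr6+ Il17a+ cells, and Cd74 at 1.18 in brain over spleen. Without cells of other lineages C1qa stood at 0.460 over brain Ccr6- cells, C1qa at 0.574 and Cst3 at 0.756 over Ccr6+ Il17a+ cells, and Cd74 at 1.22 in brain over spleen. Depth limits the low levels: 3 counts are 1.38 CPM in brain and 1.24 CPM in spleen Ccr6+ cells.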
